A study of Homo sapiens and Homo sapiens
Mus musculus with 19 samples.

Results

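The genes described here are 10 of the 57820 genes of the human count table, taken by symbol from a list of FGF pathway genes that was drawn up with earlier results of these data known: the secreted ligands FGF1, FGF2 and FGF9, the FGF homologous factor FGF13, the receptors FGFR1, FGFR2, FGFR3 and FGFR4, and the Sprouty inhibitors SPRY1 and SPRY2. Their RNA was measured in SK-N-Be2c, an established human neuroblastoma (NB) cell line with amplified MYCN, in which the TWIST1 gene either was left wild-type (Control) or had been edited by CRISPR/Cas9 (sgTWIST1). Each genotype gave 3 cultured samples that the labels call clones, sequenced in up to 2 batches, and 4 ortho_1 tumors grown from injected cells in the left adrenal gland of athymic Swiss nude mice, aged 6 to 7 weeks, until they reached 1000 mm3. The protocol gives 500000 injected cells per mouse and the series design 50000. The paper reports slower growth of the sgTWIST1 ortho_1 tumors, and a tumor in fewer mice of that group. Time in the host thus differed between genotypes, and its part in the tumor comparisons cannot be told apart from that of TWIST1. All groups derive from 1 cell line, the Control samples included, and the host mice lack T cells, so the tumors stand for this line in an immunodeficient host. Where the labels write clones the paper writes biological replicates, so p values below measure the spread between these samples, whatever its source. Cells and tumors differed in RNA input and were allotted lanes separately, and the labels give RNeasy for cells and miRNeasy for tumors where the paper names RNeasy for both. Such differences cannot be told apart from growth in the mouse.

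FGFs are a family of growth factors that act through receptor tyrosine kinases. A secreted ligand, held by heparan sulfate, joins receptors into a dimer that signals through the adaptor FRS2 to RAS and ERK, and ERK in turn induces Sprouty proteins, which dampen the signal. FGF homologous factors such as FGF13 resemble the ligands in sequence but stay inside the cell, where they bind voltage-gated sodium channels. FGF signals act on neural crest cells, from which NB arises, and FGF2 is also a growth factor for blood vessels and fibroblasts. TWIST1 is a basic helix-loop-helix factor that binds the E-box, and in the skull mutations of TWIST1 or of FGF receptors cause premature fusion of the sutures.

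Libraries held 21695694 to 45789590 human counts in the 6 cell samples and 21426499 to 49990985 in the 8 tumors, so that 3 counts correspond to 0.0796 to 0.162 CPM in cells and 0.0807 to 0.18 CPM in tumors (CPM, counts relative to the library size after TMM scaling over the genes tested). The edited gene itself ranged from 62.0 to 73.5 CPM in Control cells against 22.8 to 33.8 CPM in sgTWIST1 cells, and from 85.0 to 104 CPM in Control tumors against 24.9 to 48.6 CPM in sgTWIST1 tumors. These values are RNA, and the paper reports that the sgTWIST1 cells had fully lost the wild-type TWIST1 protein. All 12 noradrenergic NB markers were detected in every group, at 4693 to 10436 CPM in sum, and 7 of them were called higher in Control cells than in sgTWIST1 cells, as were 5 in tumors, where 1 was lower. Schwann cell markers summed to 153 to 172 CPM in sgTWIST1 tumors and to 16.1 to 39.7 CPM in Control tumors, and in cells to 59.6 to 72.3 CPM in sgTWIST1 and 28.4 to 43.7 CPM in Control. Most of the sum in sgTWIST1 tumors came from PMP22 (mean 121 CPM, Control 7.58 CPM) and ERBB3 (28.9 and 9.15 CPM), while the other 8 markers had means of at most 2.42 CPM there and SOX10 had 1.90 CPM against 2.13 CPM in Control. Endothelial markers summed to 33.9 to 113 CPM in sgTWIST1 tumors and 13.1 to 38.4 CPM in Control tumors, fibroblast markers to 333 to 455 and 433 to 545 CPM, leukocyte markers to 5.22 to 15.7 and 1.37 to 15.7 CPM, and adrenal cortex markers to 28.0 to 38.9 and 23.5 to 37.5 CPM. No marker of these lists was at 3 counts or fewer throughout a group, except 1 leukocyte gene in sgTWIST1 cells. In tumors 2 of 4 Schwann markers tested and 3 of 3 endothelial markers were lower in Control, and of 4 fibroblast markers 1 was higher and 2 were lower. The endothelial marker KDR, not among those 3, was higher in Control tumors (0.816 to 2.85 CPM) than in sgTWIST1 tumors (0 to 0.541 CPM). In cultured samples, which hold no host cells, fibroblast markers summed to 592 to 730 CPM in Control and 849 to 967 CPM in sgTWIST1. Endothelial markers summed there to 16.7 to 28.6 and 9.69 to 19.2 CPM. Leukocyte markers had 6.35 to 8.32 and 7.25 to 12.7 CPM, and adrenal cortex markers 28.4 to 32.3 and 27.5 to 30.4 CPM. What part host cells, which are murine, had in the tumor sums and in the results below was not tested.

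With TWIST1, FGF2 and FGF13 were higher and FGF1 was lower, in cells and in tumors. Among receptors and inhibitors, FGFR1 and FGFR4 were called in cells, and FGFR2 and SPRY1 in tumors. A gene was called differentially expressed (DE) by edgeR's quasi-likelihood test where its Benjamini-Hochberg adjusted p was below 0.05 and its log2(FC) was 1 or more in size. Each log2(FC) is Control relative to sgTWIST1, positive for genes upregulated by TWIST1. Tested were protein-coding genes that exceeded 1 on the log2 RPKM scale in any of the 19 columns (RPKM, CPM per kilobase of exon). For this threshold alone, RPKM was taken from the total counts of each column without TMM scaling, so the RPKM values printed below are not on exactly its scale. This threshold admitted 6 of the 10 genes: FGF1, FGF2, FGFR1, FGFR4, SPRY1 and SPRY2. In cells 4 of the 6 were DE (3 up, 1 down), beside 14.5% of all genes. In tumors 3 of the 6 were DE (2 up, 1 down), beside 14.3% of all genes. FGF2 and FGFR4 passed the threshold only through Control samples, and FGF1 only through sgTWIST1 samples. The list was also drawn up with earlier results known, so the counts of called genes, here and below, are no test of the family. FGF9, FGF13, FGFR2 and FGFR3 fell under the threshold, and FGF13 and FGFR2 did so with annotated exons of 20720 and 18813 bases. Their tests come from a second fit with the count filter filterByExpr of edgeR, which admitted all 10 genes. After that filter 5 of 10 were DE in cells, 4 up and 1 down, against a background of 15.6%, and 5 of 10 in tumors, 4 up and 1 down, against 11.9%. Control and sgTWIST1 samples did not overlap for 7 of the 10 genes in cells and for 5 of the 10 in tumors, while 53.2% and 44.3% of all genes tested did not overlap.

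**Figure D1:**
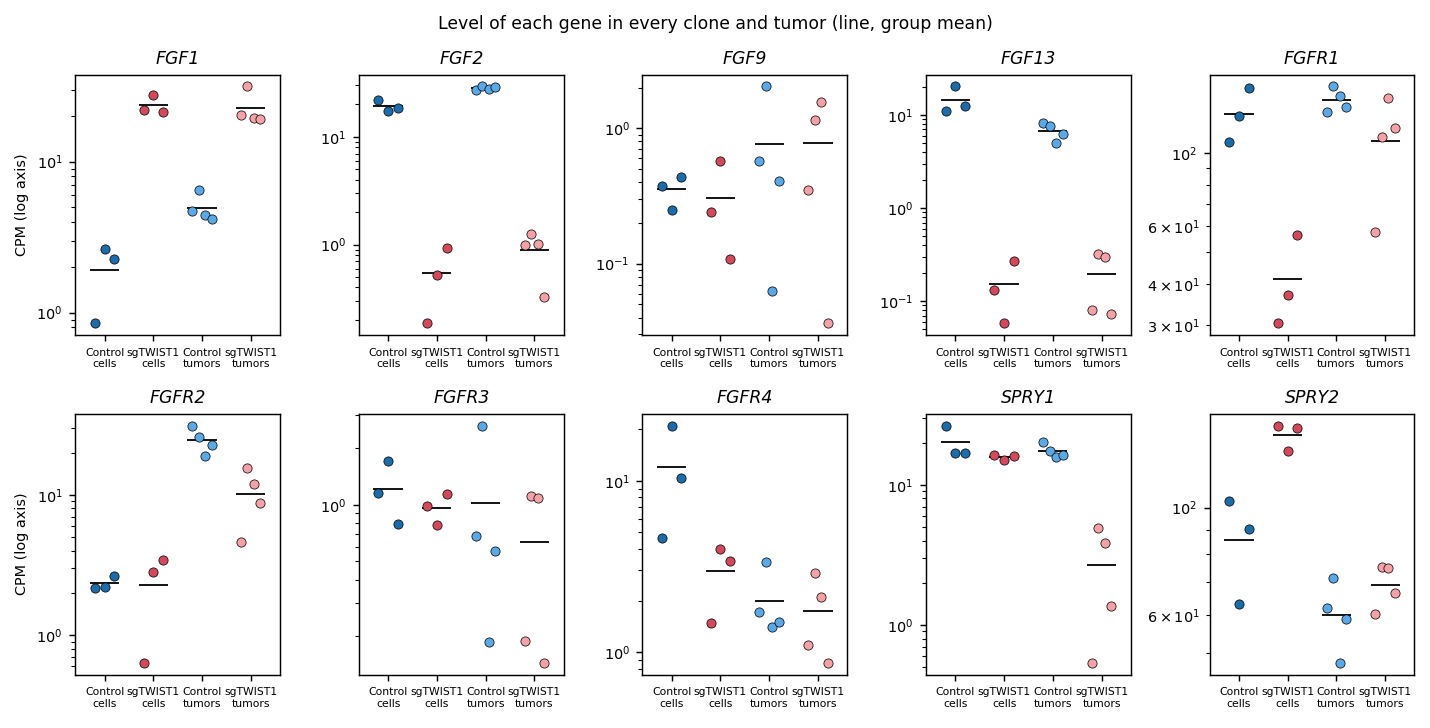
CPM of the 10 genes on log axes, with a point for each clone or tumor and a line at the group mean (3 clones or 4 tumors per group). FGF2 and FGF13 are high in Control and low in sgTWIST1 samples, FGF1 shows the opposite order, and SPRY1 is lowest in the 4 sgTWIST1 tumors.

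FGF2 (ENSG00000138685, chromosome 4, 123747837 to 123819391 of GRCh37, plus strand), a secreted ligand that lacks a classical signal peptide, was upregulated by TWIST1 in both settings. The Control clones had 22.1, 17.3 and 18.6 CPM and the sgTWIST1 clones 0.186, 0.519 and 0.921 CPM. The Control tumors had 27.0, 29.4, 27.6 and 29.3 CPM and the sgTWIST1 tumors 0.996, 1.25, 1.02 and 0.326 CPM. Every Control sample was thus above every sgTWIST1 sample, and the 4 Control tumors lay close together. The log2(FC) was 5.26 (SE 0.49, adjusted p = 0.000304) in cells and 5.01 (SE 0.31, adjusted p = 2.37e-06) in tumors, and the values in tumors and in cells differed by -0.28 (SE 0.56, adjusted p = 0.771). Leaving out each replicate in turn gave 4.78 to 5.76 in cells and 4.72 to 5.21 in tumors. In bulk samples such as these, fewer cells that express a gene and less RNA per cell cannot be told apart.

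FGF1 (ENSG00000113578, chromosome 5, 141971743 to 142077635, minus strand), a ligand that can activate all FGF receptors, moved the other way. In culture, Control clones had 0.85, 2.63 and 2.28 CPM and the sgTWIST1 clones 22.1, 27.6 and 21.2 CPM. In the mouse, Control tumors had 4.71, 6.50, 4.43 and 4.17 CPM and the sgTWIST1 tumors 20.5, 31.5, 19.6 and 19.2 CPM. All sgTWIST1 samples were above all Control samples, and the Control tumors were in turn above the Control clones. The log2(FC) was -3.62 (SE 0.41, adjusted p = 0.000689) in cells and -2.18 (SE 0.23, adjusted p = 4.12e-05) in tumors. The tumor value was 1.42 higher (SE 0.43, adjusted p = 0.0439), one of 3 such differences called among the 6 genes tested, where 8.05% of all genes had one. That call was lost when any of 11 of the 14 samples was left out (1.27 to 1.58, adjusted p from 0.0532 to 0.104) and held without Control clone 1, Control clone 2 or sgTWIST1 tumor 2. After filterByExpr it was not called (1.40, adjusted p = 0.0501), and 2 of 10 genes then had a difference against 5.43% of all genes.

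Per exon length, FGF2 made up most of the RNA of these 2 ligands in Control samples and FGF1 most of it in sgTWIST1 samples. Summed RPKM of FGF1 and FGF2 ranged from 3.07 to 3.42 in Control cells, from 4.39 to 5.62 in sgTWIST1 cells, from 4.91 to 5.63 in Control tumors and from 3.90 to 6.51 in sgTWIST1 tumors. Sums of Control and sgTWIST1 cells did not overlap, and those of the tumors did. FGF2 made up 82.8% to 95.0% of the sum in Control cells and 76.8% to 83.7% in Control tumors, against 0.613% to 3.09% in sgTWIST1 cells and 1.23% to 3.68% in sgTWIST1 tumors. These sums and shares were not tested.

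**Figure D2:**
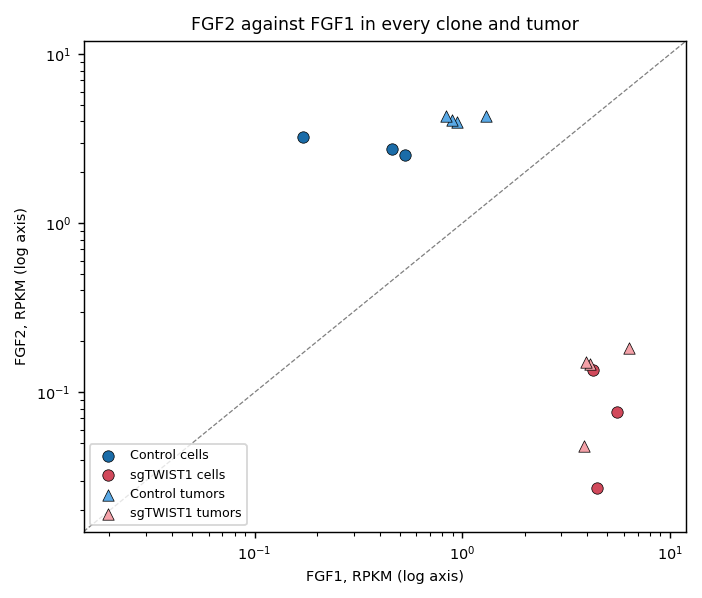
RPKM of FGF2 (vertical, log axis) against RPKM of FGF1 (horizontal, log axis), with a point for each of the 6 clones (circles) and 8 tumors (triangles) and a dashed line where both are equal. All Control samples lie above the line and all sgTWIST1 samples below it.

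FGF13 (ENSG00000129682, chromosome X, 137696888 to 138304939, minus strand) encodes the intracellular homologous factor and was also upregulated by TWIST1. The Control clones had 10.9, 20.3 and 12.6 CPM and the sgTWIST1 clones 0.133, 0.0577 and 0.271 CPM, the latter from 5, 2 and 5 counts. The Control tumors had 8.13, 7.68, 5.03 and 6.25 CPM and the sgTWIST1 tumors 0.0807, 0.324, 0.3 and 0.0724 CPM, from 3, 7, 5 and 2 counts. The groups did not overlap, and the sgTWIST1 levels stood near that of 3 counts. After filterByExpr the log2(FC) was 6.61 (SE 0.49, adjusted p = 3.84e-05) in cells and 5.17 (SE 0.56, adjusted p = 7.41e-05) in tumors, and no omitted replicate ended either call. The difference between both was -1.48 (SE 0.72, adjusted p = 0.28).

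FGF9 (ENSG00000102678, chromosome 13, 22245212 to 22278637, plus strand), a ligand known from gonad, skeleton and nervous system, was near the floor in many samples. It ranged from 0.249 to 0.439 CPM in Control cells, 0.108 to 0.577 CPM in sgTWIST1 cells, 0.0624 to 2.04 CPM in Control tumors and 0.0362 to 1.56 CPM in sgTWIST1 tumors. All these ranges overlapped. Its log2(FC) was 0.03 (SE 0.61, adjusted p = 0.976) in cells and -0.04 (SE 1.13, adjusted p = 0.991) in tumors after filterByExpr.

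Because TWIST1 binds E-boxes, the 250 bases before the transcription starts of the genes that changed most are shown, taken from RefSeq (GRCh38.p14) and written 5′ to 3′ on the strand of the gene with every E-box (CANNTG) in capitals. RefSeq promoters matched 8 of the 10 genes and gave 20 starts, FGF9 and FGFR1 having none in the table used. The E-box reads the same on both strands, CATCTG on one strand is CAGATG on the other, and both are forms of CANNTG. Of 35114 promoters of this length, 61.8% held CANNTG, 12.2% CATCTG or CAGATG, and 2.63% CATATG. Of the 20 starts, 10 held CANNTG, 2 held CATCTG or CAGATG, and 0 held CATATG. Shown are FGF2 (chr4:122826581-122826830, plus strand), the FGF13 start farthest upstream (chrX:139205024-139205273, minus strand), the FGF1 starts at chr5:142698071-142698320 and chr5:142644240-142644489 (minus strand), and, as a gene that changed in tumors, the SPRY1 start at chr4:123396545-123396794 (plus strand).
FGF2: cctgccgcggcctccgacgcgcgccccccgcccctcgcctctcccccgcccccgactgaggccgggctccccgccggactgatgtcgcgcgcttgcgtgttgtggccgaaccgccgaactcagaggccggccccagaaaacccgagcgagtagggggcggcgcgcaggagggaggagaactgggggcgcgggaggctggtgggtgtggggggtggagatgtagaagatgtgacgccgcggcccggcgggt
FGF13: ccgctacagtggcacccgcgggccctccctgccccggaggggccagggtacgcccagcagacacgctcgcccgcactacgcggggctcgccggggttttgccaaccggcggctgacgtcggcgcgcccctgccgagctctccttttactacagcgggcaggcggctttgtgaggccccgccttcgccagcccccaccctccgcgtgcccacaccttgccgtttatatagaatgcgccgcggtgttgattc
FGF1 upstream: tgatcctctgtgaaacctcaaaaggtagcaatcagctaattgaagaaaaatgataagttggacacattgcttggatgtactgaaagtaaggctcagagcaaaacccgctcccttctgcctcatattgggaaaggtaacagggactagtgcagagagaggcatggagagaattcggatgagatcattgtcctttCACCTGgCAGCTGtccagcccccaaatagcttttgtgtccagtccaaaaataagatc
FGF1 downstream: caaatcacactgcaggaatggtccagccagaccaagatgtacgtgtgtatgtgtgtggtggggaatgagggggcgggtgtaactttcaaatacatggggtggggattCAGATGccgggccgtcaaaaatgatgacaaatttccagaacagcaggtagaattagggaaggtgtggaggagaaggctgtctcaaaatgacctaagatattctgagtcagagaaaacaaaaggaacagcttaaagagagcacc
SPRY1: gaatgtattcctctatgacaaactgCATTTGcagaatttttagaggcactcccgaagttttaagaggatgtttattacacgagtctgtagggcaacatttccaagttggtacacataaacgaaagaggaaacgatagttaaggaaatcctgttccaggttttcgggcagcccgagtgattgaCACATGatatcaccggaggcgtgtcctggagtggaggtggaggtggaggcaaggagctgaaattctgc
FGF2 and both FGF13 starts held none of these motifs within the window. The upstream FGF1 start held CACCTG and CAGCTG, 57 and 50 bases before the start, and the downstream one held CAGATG at 143 bases. SPRY1 held CATTTG and CACATG at 225 and 68 bases. Of the receptors, FGFR4 held CATCTG before its second start, at 105 bases. The sites given for FGF1 and SPRY1 are those of the starts shown, not of every start of these genes. Among the starts not shown, SPRY1 at chr4:123398136-123398385 and FGF1 at chr5:142686091-142686340 held no E-box. The FGF1 start at chr5:142698022-142698271 held 3. A match of letters is not a binding site, and its absence here says nothing on bases outside the window.

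Of the receptors, FGFR1 (ENSG00000077782, chromosome 8, 38257733 to 38326352, minus strand) was the most abundant per exon length in every group, and was upregulated by TWIST1 in cells. The Control clones had 108, 130 and 158 CPM and the sgTWIST1 clones 30.4, 37.1 and 56.7 CPM. The Control tumors had 134, 160, 149 and 139 CPM and the sgTWIST1 tumors 57.5, 112, 147 and 119 CPM. In cells the groups stood apart, whereas in tumors they overlapped and sgTWIST1 tumor 1 was the lowest. The log2(FC) was 1.68 (SE 0.25, adjusted p = 0.00249) in cells and 0.43 (SE 0.23, adjusted p = 0.145) in tumors, 0.22 without sgTWIST1 tumor 1. The tumor value was 1.26 lower on the log2 scale (difference -1.26, SE 0.37, adjusted p = 0.0389). This call was lost when any of 11 of the 14 samples was left out (-1.31 to -1.08, adjusted p from 0.0523 to 0.107) and held without Control clone 1, sgTWIST1 clone 3 or sgTWIST1 tumor 1. Without TMM factors it was not called either (-1.20, adjusted p = 0.0578).

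FGFR4 (ENSG00000160867, chromosome 5, 176513906 to 176525145, plus strand), best known as the receptor for FGF19 in liver, was called in cells on variable levels. In culture, Control clones had 4.66, 21.0 and 10.4 CPM and the sgTWIST1 clones 1.49, 4.01 and 3.41 CPM. The groups did not overlap, but Control clone 1 was close to the highest sgTWIST1 clone and Control clone 2 was the highest sample of all. The log2(FC) was 2.03 (SE 0.60, adjusted p = 0.0344), and leaving out any clone other than Control clone 1 ended the call (1.35 to 2.31, adjusted p from 0.0571 to 0.106). Control tumors ranged from 1.40 to 3.38 CPM and sgTWIST1 tumors from 0.869 to 2.91 CPM, overlapping, with a log2(FC) of 0.22 (SE 0.50, adjusted p = 0.743). The difference between tumors and cells was -1.82 (SE 0.79, adjusted p = 0.142), and without Control clone 1 it was called (-2.21, adjusted p = 0.0497).

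FGFR2 (ENSG00000066468, chromosome 10, 123237846 to 123357972, minus strand) was low in culture and higher in tumors. In culture, Control clones had 2.17, 2.20 and 2.63 CPM and the sgTWIST1 clones 0.637, 2.83 and 3.41 CPM. In the mouse, Control tumors had 31.1, 25.9, 19.0 and 22.7 CPM and the sgTWIST1 tumors 4.63, 15.4, 11.9 and 8.73 CPM. The clones overlapped, the tumor groups did not, and all tumors were above all clones. After filterByExpr the log2(FC) was -0.01 (SE 0.52, adjusted p = 0.99) in cells and 1.28 (SE 0.29, adjusted p = 0.00785) in tumors. Without sgTWIST1 tumor 1 the tumor value was 0.97 (adjusted p = 0.00887), just under the fold threshold. The difference of 1.21 (SE 0.59, adjusted p = 0.286) was not called, but without sgTWIST1 clone 1, the lowest, it was 1.72 (adjusted p = 0.0473). FGFR3 (ENSG00000068078, chromosome 4, 1795020 to 1810599, plus strand), a receptor known for its role in bone growth, ranged from 0.145 to 2.63 CPM over all samples with overlapping groups, and its log2(FC) was 0.27 (SE 0.40, adjusted p = 0.642) in cells and 0.66 (SE 0.98, adjusted p = 0.727) in tumors.

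FGFR1 accounted for most of the receptor RNA per exon length. Its share of the RPKM of the 4 receptors was 61.0% to 82.6% in Control cells, 65.4% to 76.4% in sgTWIST1 cells, 78.0% to 86.6% in Control tumors and 79.8% to 91.1% in sgTWIST1 tumors. The ranges of Control and sgTWIST1 overlapped in each setting. The sum itself was 7.62 to 12.4 RPKM in Control cells and 2.31 to 4.42 RPKM in sgTWIST1 cells, which did not overlap, against 9.69 to 11.9 and 3.86 to 9.86 RPKM in tumors, which did.

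SPRY1 (ENSG00000164056, chromosome 4, 124317950 to 124324915, plus strand), an inhibitor that ERK signaling induces, was called in tumors, where FGFR1 was not. In culture, Control clones had 26.4, 16.9 and 16.8 CPM and the sgTWIST1 clones 16.2, 15.1 and 16.1 CPM. In the mouse, Control tumors had 20.3, 17.4, 15.7 and 16.2 CPM and the sgTWIST1 tumors 0.538, 4.95, 3.85 and 1.38 CPM. The sgTWIST1 tumors were below every other sample, and the clones were apart by a narrow margin. The log2(FC) was 0.34 (SE 0.21, adjusted p = 0.239) in cells and 2.75 (SE 0.54, adjusted p = 0.00208) in tumors, 2.39 to 3.28 with each tumor left out. The values differed by 2.40 (SE 0.67, adjusted p = 0.0299), a call lost without Control clone 2 or 3, any sgTWIST1 clone, or Control tumor 1 (2.31 to 2.43 over these 6, adjusted p up to 0.0736). The part of any other cell type in the lower SPRY1 of the sgTWIST1 tumors was not tested.

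SPRY2 (ENSG00000136158, chromosome 13, 80910111 to 80915261, minus strand), the other Sprouty gene, had the highest RPKM of the 10 genes in every group. The Control clones had 103, 63.2 and 90.3 CPM and the sgTWIST1 clones 148, 131 and 146 CPM, without overlap. The Control tumors had 61.9, 71.6, 47.7 and 58.7 CPM and the sgTWIST1 tumors 60.2, 75.3, 74.8 and 66.6 CPM, which overlapped. Its log2(FC) was -0.73 (SE 0.18, adjusted p = 0.0192) in cells, under the fold threshold of the DE call, and -0.19 (SE 0.14, adjusted p = 0.279) in tumors. SPRY1 and SPRY2 thus had estimates of opposite sign in cells and in tumors.

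**Figure D3:**
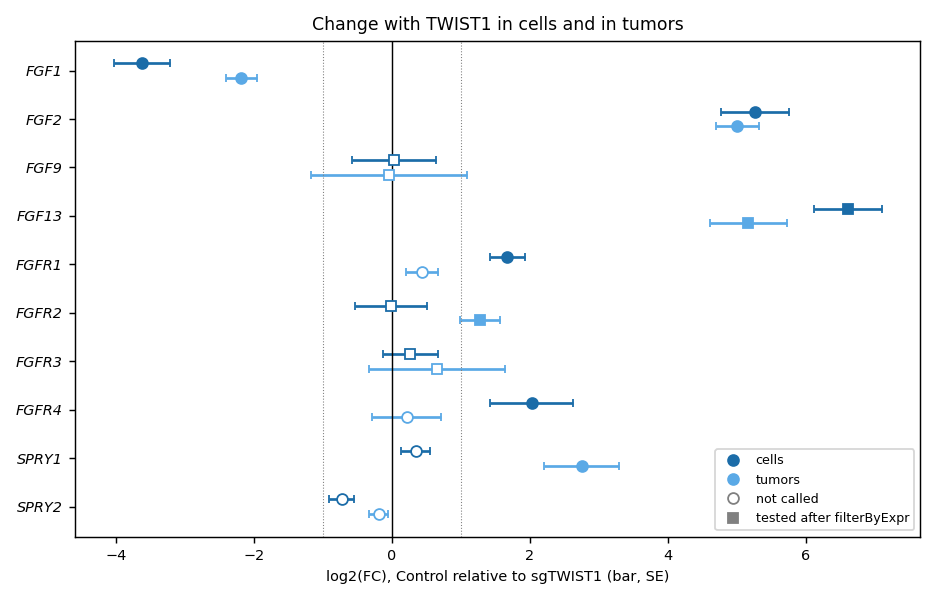
log2(FC) of Control relative to sgTWIST1 with its SE for each gene in cells (dark) and tumors (light), filled where DE, with squares for the 4 genes tested after filterByExpr and dotted lines at the fold threshold. FGF2, FGF13 and FGF1 are DE in both, FGFR1 and FGFR4 in cells, and FGFR2 and SPRY1 in tumors.

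The same genes were compared between tumors and cells within a genotype, with positive values for higher levels in tumors. Among Control samples 2 of the 6 genes were called (1 higher, 1 lower in tumors), against a background of 11.8%, and 4 of 10 after filterByExpr against 9.72%. FGF1 was higher in Control tumors (log2(FC) 1.37, SE 0.33, adjusted p = 0.00484) and FGFR4 was lower (-2.60, SE 0.55, adjusted p = 0.00229). FGFR2 was also higher (3.18, SE 0.46, adjusted p = 0.000128 after filterByExpr). FGF13 was lower by the same fit (-1.34, SE 0.38, adjusted p = 0.0168), a call lost without any of 6 of the 7 Control samples (-1.30 to -1.02, adjusted p from 0.0509 to 0.13). Among sgTWIST1 samples 3 of 6 were DE, 1 up and 2 down, against 12.7%, and 4 of 10 after filterByExpr against 10.1%. FGFR1 was higher in sgTWIST1 tumors than in sgTWIST1 cells (1.40, SE 0.27, adjusted p = 0.00118), and 0.14 (SE 0.26, adjusted p = 0.713) in the same comparison among Control samples. SPRY1 was lower in sgTWIST1 tumors (-2.61, SE 0.48, adjusted p = 0.000817), while the Control value was -0.20 (SE 0.45, adjusted p = 0.752). FGFR2 was higher (1.97, SE 0.44, adjusted p = 0.00374 after filterByExpr) and SPRY2 lower (-1.03, SE 0.16, adjusted p = 0.000235), the latter at -0.97 and under the fold threshold without sgTWIST1 tumor 1. SPRY2 among Control samples was -0.51 (SE 0.16, adjusted p = 0.0227). FGF2 among sgTWIST1 samples was 0.83 (SE 0.45, adjusted p = 0.154), and passed both thresholds without sgTWIST1 clone 3 (1.33, adjusted p = 0.0415) or without sgTWIST1 tumor 4 (1.12, adjusted p = 0.0308). Tumors and cells did not overlap for 5 of the 10 genes in Control and 4 of the 10 in sgTWIST1, against 41.1% and 50.3% of all genes tested. In the filterByExpr fit of all groups, the tumor-against-cell values had a median over all genes of -0.07 in Control and 0.09 in sgTWIST1. The difference between tumors and cells in the change with TWIST1, given gene by gene further above, had a median of -0.18 there. In the main fit that median was -0.03, so filterByExpr values of that difference are to be read relative to this shift.

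Levels were ordered per exon length by mean RPKM. In Control tumors the order was SPRY2 (18.7 ± 3.06 RPKM, SD, n = 4), FGFR1 (8.44 ± 0.675), SPRY1 (4.39 ± 0.518), FGF2 (4.16 ± 0.179), FGFR2 (1.31 ± 0.272), FGF1 (0.995 ± 0.212), FGFR4 (0.416 ± 0.193), FGF13 (0.327 ± 0.0682), FGFR3 (0.210 ± 0.226) and FGF9 (0.159 ± 0.18). SPRY1 and FGF2 overlapped, as did FGFR2 and FGF1, and the 4 lowest each overlapped the next. In sgTWIST1 tumors SPRY2 (21.5 ± 2.24 RPKM) and FGFR1 (6.34 ± 2.19) were again the highest, with FGF1 (4.56 ± 1.18) overlapping FGFR1, and FGF13 (0.00938 ± 0.00658) was the lowest. From SPRY1 (0.675 ± 0.521) down through FGFR2, FGFR4, FGF9 and FGF2 to FGFR3 (0.130 ± 0.111), each overlapped the next. In Control cells the order began with SPRY2 (26.6 ± 6.33 RPKM, SD, n = 3), FGFR1 (7.68 ± 1.44) and SPRY1 (5.06 ± 1.39), where FGFR1 and SPRY1 overlapped. FGF2 (2.84 ± 0.368), FGFR4 (2.5 ± 1.72), FGF13, FGF1 and FGFR3 followed, each overlapping the next, and FGFR2 (0.124 ± 0.0136) and FGF9 (0.073 ± 0.0199) were the lowest. In sgTWIST1 cells it was SPRY2 (44.1 ± 2.81 RPKM), FGF1 (4.74 ± 0.702), SPRY1 (3.98 ± 0.161), FGFR1 (2.41 ± 0.792) and FGFR4 (0.617 ± 0.274), without overlap, then FGFR3, FGFR2, FGF2 and FGF9, each overlapping the next, and FGF13 (0.00742 ± 0.00522). The order depends on the length used: with the canonical transcript FGFR2 had 5.33 RPKM in Control tumors, above the 4.25 RPKM of FGF2.

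FGF2 and SPRY1 lie 499 kb apart on chromosome 4, and share their 20 nearest tested genes. These had a median log2(FC) of 0.51 in cells, with 3 DE, and of 0.54 in tumors, with 2 DE, and the highest among them was 3.55 in cells and 3.08 in tumors. SPATA5, which lies between them, had a log2(FC) of 0.46 in cells (adjusted p = 0.0732) and 0.66 in tumors (SE 0.13, adjusted p = 0.00161). NUDT6, an antisense gene that overlaps the end of FGF2, was tested after filterByExpr with 0.37 in cells (adjusted p = 0.272) and 0.45 in tumors (adjusted p = 0.15). The strand setting of the counting was not given in the sources used here, so reads of FGF2 and NUDT6 in the shared stretch, or of FGFR1 and the antisense gene LETM2, may not be told apart. NUDT6 held 92 to 204 counts in every sample where FGF2 held 7 to 933. LETM2 held 166 to 408 counts, RPS20P22, a pseudogene within FGFR1 on its strand, 6 to 138, and FGFR1 itself 1046 to 4775. SPRY4-AS1, antisense to FGF1, held 14 to 29 counts. For the other genes the medians of the 20 nearest ranged from -0.46 to 0.57 in cells and from -0.56 to 0.57 in tumors.

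Over the 14 samples, the genes whose log2 CPM followed FGF2 most closely among 10888 others were FRMD4B (Pearson r = 0.99), GALNT13 (r = 0.989) and FMNL2 (r = 0.989). For FGF1 it was KCNG1 (r = 0.984), for FGFR1 CHST2 (r = 0.96), for FGFR4 LTBP4 (r = 0.944), for SPRY1 GULP1 (r = 0.944) and for SPRY2 POLR3G (r = 0.947). These 14 points fall into 4 groups, so each value mostly describes a shared order of the groups.

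Of the other genes of the pathway, 127 were in the table and 79 passed the RPKM threshold. In cells 22 of the 79 (27.8%) were DE, 16 up and 6 down, beside 14.5% of all genes, and in tumors 16 (20.3%) were, 13 up and 3 down, beside 14.3% of all genes. The same background of 14.5% and 14.3% holds for each list below, whose counts are small. Of 15 further secreted ligands only FGF19, the bile acid regulated hormone, passed the threshold, with a log2(FC) of 2.54 (SE 0.76, adjusted p = 0.035) in cells and -1.25 (SE 0.56, adjusted p = 0.0876) in tumors. The difference of -3.82 (SE 0.98, adjusted p = 0.0199) was called. After filterByExpr, which tested 4 of the 15 in cells and 7 in tumors, FGF19 in cells was again the only call, and its mean of 3.28 CPM in Control cells was the highest group mean of these ligands. Of the 3 other homologous factors, FGF14 was upregulated in tumors after filterByExpr (1.65, SE 0.19, adjusted p = 0.000117) and FGF11 in cells (1.08, adjusted p = 0.0139), while FGF12 was called in neither. Of 5 sodium channel genes tested, 2 were up and 1 down in cells and 1 up and 1 down in tumors, where SCN3A was upregulated in tumors (2.52, SE 0.36, adjusted p = 0.000305) and SCN9A, a channel of sympathetic and sensory neurons, was downregulated (-1.6, SE 0.30, adjusted p = 0.00157). In cells SCN3A was also upregulated (3.36, SE 0.34, adjusted p = 0.000468). SCN9A was called the other way in cells (1.02, SE 0.33, adjusted p = 0.0466), and its difference between tumors and cells was -2.65 (SE 0.49, adjusted p = 0.00292).

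The longest list held core proteins of heparan sulfate, which holds the ligand, and enzymes that act on heparan sulfate. Of 23 heparan sulfate core proteins and enzymes tested, 6 were up and 1 was down in cells, and 6 were up and 0 down in tumors, with a list median of 0.21 and 0.06 against 0.00 over all genes in both. GPC3, a glypican, rose from 0.434 CPM in sgTWIST1 tumors to 142 CPM in Control tumors (log2(FC) 8.49, SE 0.27, adjusted p = 5.34e-08). SDC2, a syndecan, had 3.17 in tumors (SE 0.27, adjusted p = 1.44e-05), HS6ST3, a sulfotransferase of heparan sulfate, 2.39 (SE 0.49, adjusted p = 0.00279), and SDC3, another syndecan, 2.25 (SE 0.31, adjusted p = 0.000263). In cells GPC3 (6.05, adjusted p = 0.00192), SDC2 (2.69, adjusted p = 0.000299) and HS6ST3 (4.30, adjusted p = 0.000115) were also upregulated. SDC3 was not called in cells (-0.59, adjusted p = 0.25), and its difference of 2.82 (SE 0.52, adjusted p = 0.00286) was called. Of 5 co-receptors and carriers tested, 1 was up and 1 down in cells and none in tumors. After filterByExpr 1 was up and 3 were down of 10 tested in cells, beside 15.6% of all genes DE. In tumors 0 were up and 1 was down of 11 tested, beside 11.9%. The gene called in tumors was FLRT2, at -3.96 (SE 0.86, adjusted p = 0.00574), and in cells it had -1.81 (SE 0.33, adjusted p = 0.00409). Of 20 receptor adaptors and members of the RAS-ERK cascade tested, 19 were not called in cells and 19 were not called in tumors.

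Of 10 other feedback inhibitors tested, 1 was up and 2 were down in cells, and 2 were up and 1 down in tumors. IL17RD, which blocks FGF receptor signaling at the membrane, rose from 38.6 to 348 CPM in tumors (3.20, SE 0.39, adjusted p = 0.000116). In cells it rose from 1.22 to 51.9 CPM (5.47, SE 0.34, adjusted p = 5.51e-05). Its difference between tumors and cells, -2.31 (SE 0.60, adjusted p = 0.0201), was called. DUSP6, the phosphatase of ERK, had 2.32 (SE 0.32, adjusted p = 0.000254) in tumors and 0.27 (SE 0.37, adjusted p = 0.595) in cells, and the difference between both was 2.02 (adjusted p = 0.0207). DUSP5, another ERK phosphatase, was downregulated in tumors (-1.62, SE 0.24, adjusted p = 0.000418) and not called in cells (-0.59, adjusted p = 0.0993). SPRY4 was at 0.18 (SE 0.11, adjusted p = 0.206) in tumors, and SPRY3 was too low for the RPKM threshold. Of 15 transcriptional targets of ERK tested, 4 were up and 1 down in cells, and 3 were up and 1 down in tumors. CCND1, the cyclin of the G1 phase, was upregulated in tumors (1.87, SE 0.13, adjusted p = 5.1e-06), as were ETV4 (1.13, SE 0.17, adjusted p = 0.000392), a factor induced by FGF signals, and PHLDA1 (1.08, SE 0.19, adjusted p = 0.00119). In cells CCND1 (1.55, SE 0.20, adjusted p = 0.00132) and PHLDA1 (1.13, SE 0.14, adjusted p = 0.001) were also called. ETV4 was not called in cells (0.22, SE 0.16, adjusted p = 0.322). FOSL2, a subunit of AP-1, was downregulated in tumors (-3.29, SE 0.28, adjusted p = 1.29e-05). In cells FOSL2 had -0.72 (adjusted p = 0.011), under the fold threshold, and the difference of -2.59 (adjusted p = 0.000333) was called. Of the other ETV genes, ETV5 had -0.52 in cells (adjusted p = 0.00819) and -0.44 in tumors (adjusted p = 0.0133). ETV1 was downregulated in cells (-1.93, adjusted p = 0.000655) and had 0.62 in tumors (adjusted p = 0.0228). These ETV5 values and the ETV1 value in tumors were under the fold threshold.

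**Figure D4:**
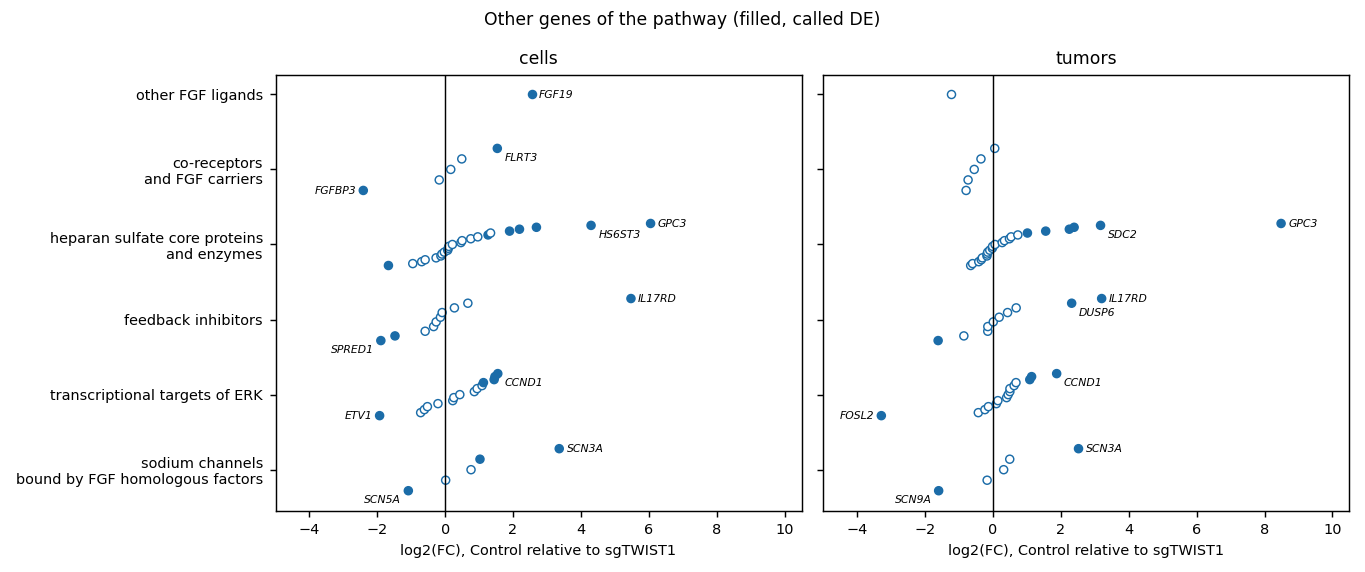
log2(FC) of Control relative to sgTWIST1 in cells (left) and tumors (right) for the other pathway genes tested, by list, filled where DE (the adaptor list is not shown). The largest value in tumors is that of GPC3, at 8.49.

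The tumors also held murine RNA, between 2.44% and 14% of all counts, and reads that matched both species had been kept with the human counts. Mouse Fgfr1 had 50 to 1316 counts per tumor, Fgf2 14 to 439, Spry1 18 to 326 and Fgf1 1 to 153, and Fgf13 at most 8. Human FGF1 had 121 to 142 counts in Control tumors, and mouse Fgf1 was higher in Control tumor 4 (153 against 133). In sgTWIST1 tumors human FGF1 had 326 to 761 counts and mouse Fgf1 16 to 22. Human FGF2 had 547 to 933 counts in Control tumors, more than mouse Fgf2 in each. In the sgTWIST1 tumors human FGF2 had 9 to 37 counts and mouse Fgf2 56 to 136, the mouse gene being higher in 4 of 4. Human SPRY1 had 20 to 107 counts there and mouse Spry1 73 to 152, the mouse gene being higher in 3 of 4. Mouse Fgfr2 had at most 88 counts, while human FGFR2 had 172 to 818. How many of the remaining human counts of FGF2 and SPRY1 in sgTWIST1 tumors, or of FGF1 in Control tumors, are shared reads was not tested.

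**Figure D5:**
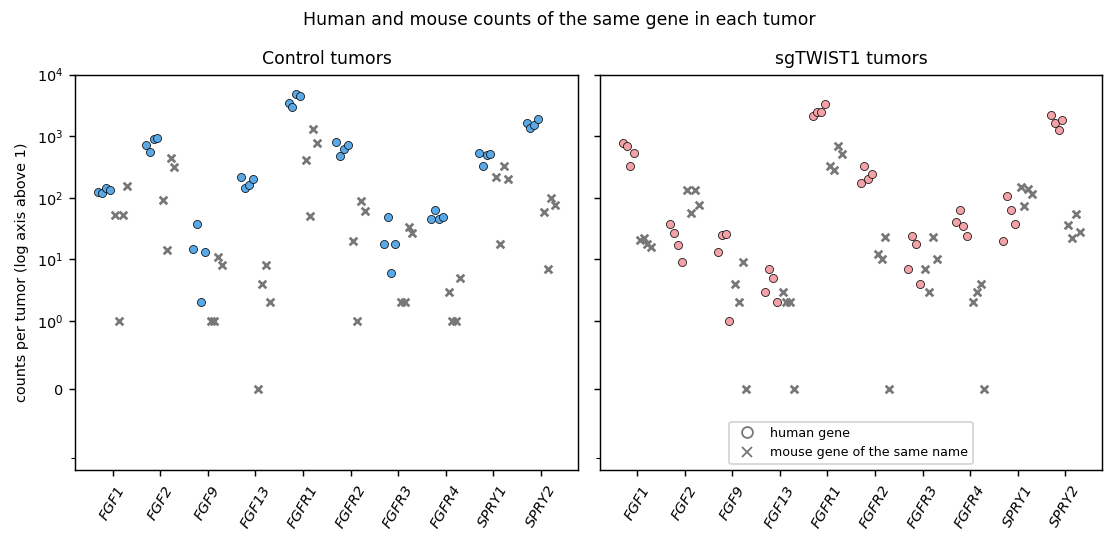
Counts of the human gene (circles) and of the mouse gene of the same name (crosses) in each Control tumor (left) and sgTWIST1 tumor (right), on an axis that is logarithmic above 1. Mouse counts of Fgf2 exceed the human ones in all 4 sgTWIST1 tumors and in no Control tumor.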

How the data were processed

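Ribosome-depleted total RNA had been sequenced by the authors as single-end reads of 100 bases. Per the labels, reads were aligned to hg19 and mm10 with STAR 2.5.2b, and the authors deposited, without normalization, the expected counts per gene from RSEM 1.3.0, in 19 human and 8 murine columns. The GENCODE version was not given in the sources used here. Reads that matched both species were kept by the authors with the human counts, which can add murine signal to human genes in tumors, and discarded from the murine counts.

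Expected counts were rounded, and batches of a clone summed, giving 14 samples. The members and gene lists were chosen with earlier results of these data known. Genes were matched by Ensembl identifier to a GENCODE annotation of GRCh37 (55538 matched, 19404 protein-coding, 10889 past the RPKM threshold, 10888 in cells). All p values come from edgeR 4.0.16 (R 4.3.3): TMM factors, a quasi-likelihood fit and Benjamini-Hochberg correction across every gene in the fit. Cells and tumors were fitted separately, and comparisons across both in 1 fit of the 4 groups. The fit was tested on simulated data. Reported log2(FC) values contain a prior count, so those of genes near 0 counts depend on it. Alternatives were the Wald test and size factors of DESeq2 1.42.0, other filters and gene types, other handling of batches, a replicate block, and each replicate left out. Floors of 3 counts cover counting error only. Figures used matplotlib 3.10.9.

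Named genes were the 10 members, TWIST1, up to 4 DE genes of largest change per list whose tumors did not overlap, FGF and SPRY family genes of the lists, the genes most correlated with a member, and genes overlapping one. SPATA5, for its place between FGF2 and SPRY1, and FLRT2, ETV1 and ETV5 were named after their values were seen. Murine genes were not tested. Single genes of the adaptor list are not reported here.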

Additional observations from a re-analysis of the deposited data

Results flagged for a closer look

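Of 20 groups of 4 tumors checked for a sample far from the others, 2 had one, where chance gives about 1 in 20. FGF1 in sgTWIST1 tumor 2 stood at 31.5 CPM, above the 19.2 to 20.5 CPM of the other sgTWIST1 tumors. FGFR4 in Control tumor 2 stood at 3.38 CPM, above the 1.40 to 1.71 CPM of the others, and murine counts were 2.44% of that tumor, the lowest share of all. FGFR4 was not alone in this. Control tumor 2 was also the highest Control tumor for FGF9 (2.04 CPM, others 0.0624 to 0.57) and FGFR3 (2.63 CPM, others 0.187 to 0.683). It thus sets the upper ends given for these 3 genes in Control tumors. Whether that library was higher over low genes in general was not tested.

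The change with TWIST1 differed between tumors and cells for 3 genes by the interaction term of edgeR's quasi-likelihood test. The log2(FC) in tumors minus that in cells was 1.42 for FGF1 (adjusted p = 0.0439), -1.26 for FGFR1 (adjusted p = 0.0389) and 2.40 for SPRY1 (adjusted p = 0.0299). Tumors and cells also differ in RNA input and, per the labels, in RNA kit, whose part in these differences was not tested.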

How the results depend on the processing

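Over 577 recomputed log2(FC) values of the 10 genes, 534 kept their side of the thresholds, 37 lost a call, 6 gained one and 0 called values changed sign. The called genes in tumors rose from 3 to 5 with filterByExpr and to 5 with no filter on low counts, and those between Control tumors and Control cells from 2 to 4 with either, because both filters test FGF13 and FGFR2. The genes with a difference between tumors and cells ranged from 0 to 4 when a replicate was left out, against 3 with all samples, and numbered 2 without TMM factors or with filterByExpr. With RPKM from canonical transcript lengths, an alternative chosen after seeing the data, FGFR2 entered the test and 4 genes were called in tumors. At the adjusted p alone, all genes called rose from 1583 to 4018 in cells, from 1555 to 5124 in tumors and from 877 to 1405 for the difference, and between tumors and cells from 1284 to 4107 in Control and from 1379 to 4407 in sgTWIST1. With genes of all types these last 2 counts were 1938 and 2080, and in cells filterByExpr gave 2397 and no filter on low counts 2450. The labels do not say that a replicate number marks anything shared. Deviations from the group means correlated at 0.1 to 0.316 between same-numbered clones and at -0.273 to 0.0648 between others, so each clone correlated best with its own number, a hint from the data, but 1 of 3 pairs did not exceed 0.1 and the numbers were not taken as pairs. In tumors the ranges were -0.191 to 0.283 and -0.343 to 0.437. With the replicate block 4 genes were called in cells, 3 in tumors and 4 for the difference, where FGFR4 was added (-1.63, adjusted p = 0.05), and it changed no other call. Low counts limit FGF9, FGFR3 and the sgTWIST1 levels of FGF2 and FGF13.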
